A study of Mus musculus with 2 samples.

Results

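Cadherins and regulators of the epithelial-mesenchymal transition were followed as a set of 10 genes: the cadherins Cdh1, Cdh2 and Cdh3, the epithelial genes Epcam and Esrp1, the intermediate filament gene Vim, and the transcription factor genes Snai1, Snai2, Zeb1 and Zeb2. A probe set was taken as a member when the array annotation gave it exactly 1 gene symbol and that symbol was on the list. This gave 12 probe sets for 9 genes, out of 33793 probe sets and 22180 genes measured. Zeb2 had no probe set of its own. The data are RMA-summarised microarray values of total RNA from 2 mouse embryonic stem cell samples, 1 from a stable Niwa line carrying EWS-OCT4A-GFP, called the fusion line here, and 1 from a stable Niwa line carrying GFP, the control line. Both lines were kept in stem cell medium with LIF, and both received 1 µg/ml doxycycline to bring down their endogenous OCT-4. EWS-OCT4A joins the EWS protein to OCT4A, the pluripotency form of the transcription factor OCT4. The sources used here do not say which promoter drives either transgene, whether a line is a single clone, how long doxycycline was given or whether a column averages duplicate arrays. There was no sample without doxycycline.

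Cadherins are calcium-dependent adhesion proteins that join neighbouring cells and are anchored inside the cell to actin through catenins. E-cadherin, the product of Cdh1, holds together epithelia, the early embryo and colonies of embryonic stem cells. In an epithelial-mesenchymal transition, transcriptional repressors of the SNAIL and ZEB families bind E-box sequences in epithelial genes, E-cadherin gives way to N-cadherin, and vimentin filaments are built up. The trophectoderm, the epithelium that forms the outer layer of the blastocyst and later the placenta, is the lineage that mouse embryonic stem cells are known to enter when OCT4 is removed.

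Each value is a log2 level and each difference is fusion line minus control line. With 1 sample in each group no difference has a replicate check, and no test was possible. A gene is counted as higher or lower when the difference reached 2-fold, a log2 value of 1, and the higher of its readings was not under 4.10, the floor, which is the median over both samples and every probe set. In bulk RNA, fewer cells of a type and less RNA per cell cannot be told apart.

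Marker genes were read beside the labelled cell type. The marker lists were chosen with earlier results of these data known, so their counts are a description and no independent check. Of 12 trophectoderm markers, 10 were at least 2-fold lower in the fusion line and none was higher, with a median level of 4.55 (3.63 to 6.96) there and of 8.09 (4.44 to 11.0) in the control line. Gata2 read 4.29 in the fusion line and 9.74 in the control line, and Krt18 read 4.35 and 10.7. Embryonic stem cell markers had the opposite direction. All 12 were at least 2-fold higher in the fusion line, with readings of 5.83 to 11.0 there and of 1.96 to 7.77 in the control line. Nanog read 10.5 in the fusion line and 5.94 in the control line. The sample labelled GFP thus combined the lower readings of stem cell markers with the higher readings of trophectoderm markers. Pou5f1 itself read 5.37 and 5.24, and the sources used here do not say whether its probe set detects the transgene.

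The members differed in both directions, also within the cadherins. The genes of epithelia, Cdh1, Cdh3, Epcam and Esrp1, were all at least 2-fold lower in the fusion line. Of the remaining 5 measured genes, Vim, Zeb1 and Cdh2 were at least 2-fold higher, whereas Snai1 and Snai2 stayed within 2-fold. Thus 7 of the 9 genes passed the size rule, against 21.2% of all 13516 genes that reached the floor (11.9% lower and 9.31% higher). The members were chosen with earlier results of these data known, so this count is a description and no test of enrichment. All 9 were at or above the floor, but 2 of them, Cdh2 and Esrp1, were so in 1 sample only. The higher calls of Zeb1 and Cdh2 did not hold at every fold and floor tried.

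**Figure D1:**
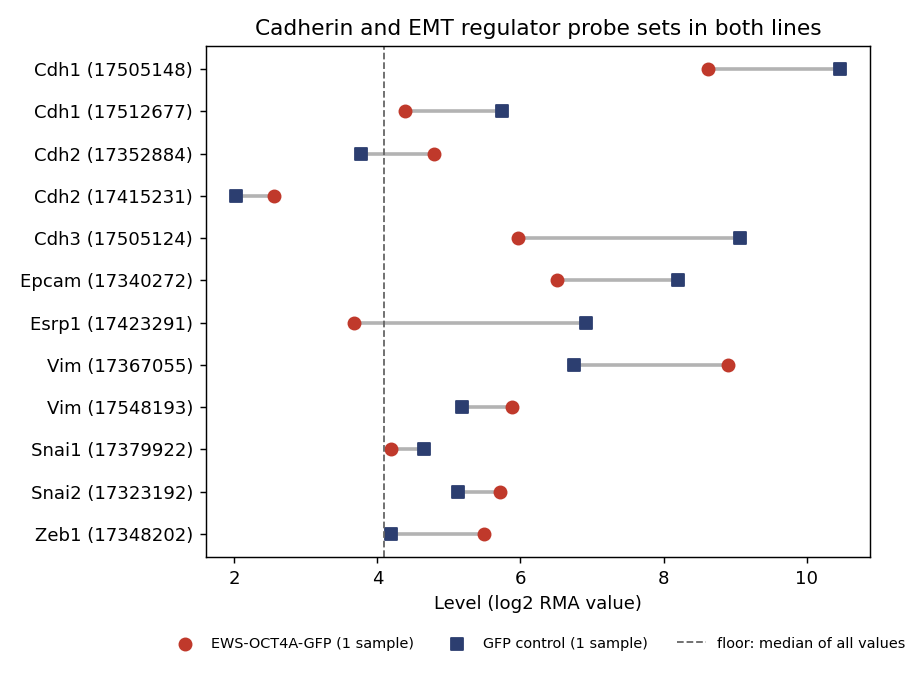
Level of each member probe set (x axis, log2 RMA value) in the EWS-OCT4A-GFP sample (red circles) and the GFP control (blue squares), 1 sample each; the dashed line is the floor of 4.10. The blue square lies to the right for Cdh1, Cdh3, Epcam, Esrp1 and Snai1, and the red circle lies to the right for Vim, Zeb1, Snai2 and Cdh2.

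Cdh1 read 8.63 in the fusion line and 10.5 in the control line on probe set 17505148. The fusion line was thus lower by a log2 difference of -1.84, or 3.57-fold, although its reading stayed well above the floor. A further Cdh1 probe set, 17512677, read 4.38 and 5.74, a difference of -1.36. The probe sets of Cdh1 therefore had the same direction, and both passed 2-fold.

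Cdh3, which encodes P-cadherin, a cadherin of placenta and of basal epithelial cells, read 5.96 in the fusion line and 9.08 in the control line. Its difference of -3.12, or 8.66-fold, was the largest of the member cadherins and ranked 139 from the lowest among those 13516 genes. Cdh1 ranked 577 in the same order. Cdh1 and Cdh3 are direct neighbours among the protein-coding genes of RefSeq on chromosome 8. The genes flanking the pair were not lower by 2-fold. Zfp90, next to Cdh3, differed by -0.24, and Tango6, next to Cdh1, differed by 0.85.

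Cdh2, which encodes N-cadherin, the cadherin of neural and many mesenchymal cells, read 4.79 in the fusion line and 3.78 in the control line on probe set 17352884. The difference of 1.02 (2.02-fold) only just reached the threshold, and the control reading was under the floor. With the control set to the floor the difference was 0.70, or 1.62-fold. Probe set 17415231 of the same gene read 2.56 and 2.02, both under the floor. Cdh2 was also under 2-fold after centring each sample on its median (0.98), after loess centring (0.99) and when its probe sets were averaged (0.77), so the higher call for N-cadherin does not hold across these settings.

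Most other cadherin genes with a numbered Cdh symbol read low. Of 20 further cadherin genes from Cdh4 to Cdh26, 15 read under the floor in both samples. None of the 20 was at least 2-fold higher and 1 was at least 2-fold lower, and their median difference was -0.23 against 0.00 over all genes. That 1 gene was Cdh5, which encodes VE-cadherin of endothelial cells, with 4.30 in the fusion line and 8.06 in the control line. Its difference of -3.76 exceeded that of Cdh3. Cdh4 (-0.49), Cdh24 (-0.41) and Cdh22 (-0.40) followed, all within 2-fold. The 1 lower gene was among 5 of the 20 that reached the floor, beside 11.9% lower over all such genes. Among the 23 genes, no exchange between cadherins of the size of the Cdh1 or Cdh3 difference was therefore measured in the opposite direction. Of these genes, only Cdh2 was on the higher side of 2-fold. The desmocollins, cadherins of desmosomes, were not on this list. Dsc2 read 4.13 in the fusion line and 7.76 in the control line, a difference of -3.63. Dsc3 differed by -0.78, within 2-fold, and Dsc1 was under the floor in both samples.

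**Figure D2:**
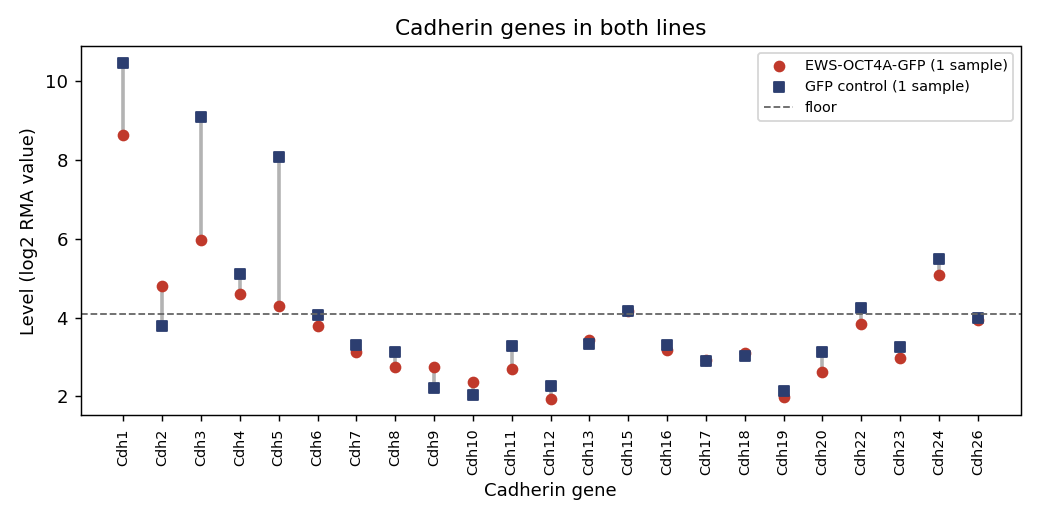
Level of 23 cadherin genes (y axis, log2 RMA value; 1 probe set for each gene) in the EWS-OCT4A-GFP sample (red circles) and the GFP control (blue squares), 1 sample each; the dashed line is the floor of 4.10. The GFP control stands far above the fusion line at Cdh1, Cdh3 and Cdh5, while 15 of the genes lie under the floor in both samples.

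Genes for the proteins that anchor cadherins had smaller differences than Cdh1 and Cdh3. Of 16 catenin, adaptor and nectin genes measured, 2 were at least 2-fold lower and none at least 2-fold higher, with a median difference of -0.34. The 2 lower genes were among 14 that reached the floor, beside 11.9% lower over all such genes. Nothing particular to this list is read from the count. Vcl, which encodes vinculin, a link between alpha-catenin and actin, read 7.93 in the fusion line and 9.52 in the control line, a difference of -1.58. Ctnnd1, the catenin that keeps cadherins at the membrane, read 7.16 and 8.26, a difference of -1.11. Ctnnb1, which encodes beta-catenin, differed by -0.33, Jup (plakoglobin) by -0.74 and Ctnna1 (alpha-catenin) by -0.88. The nectin genes Nectin3 (0.93) and Nectin1 (0.91) lay on the other side of 0 and within 2-fold.

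Genes for proteins that cut, process or turn over cadherins were also read. Of 14 measured genes of E-cadherin shedding and turnover, 4 were at least 2-fold lower, none was at least 2-fold higher, and the median difference was -0.58. Of the 14, 10 reached the floor, and over all genes that did so 11.9% were at least 2-fold lower. Furin, the convertase that removes the cadherin propeptide, read 5.70 in the fusion line and 7.28 in the control line. Adam10, an E-cadherin sheddase, read 6.79 and 8.31, a difference of -1.52. Mmp14 differed by -1.13 and Mmp9 by -1.04. Cbll1, the ubiquitin ligase Hakai that directs E-cadherin to degradation, differed by 0.22.

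Epcam, a homophilic adhesion protein of epithelia and of embryonic stem cells, read 6.51 in the fusion line and 8.21 in the control line. The difference was -1.70, or 3.24-fold. Esrp1, an RNA-binding protein that sets epithelial splice forms, read 3.68 in the fusion line and 6.92 in the control line. It had the largest difference of the 9 genes, -3.24 or 9.45-fold, and ranked 126 from the lowest. The fusion-line reading was under the floor, and with that reading set to the floor the difference was 7.07-fold. Its paralog Esrp2 read 5.21 and 8.74, a difference of -3.52, so that both epithelial splicing regulators were lower in the same sample. The splice forms they select were not analysed here.

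Other epithelial genes lay on the same side. Of 21 measured epithelial regulators and surface genes, 12 were at least 2-fold lower and 1 was at least 2-fold higher. Their median difference was -1.14, against 0.00 over all genes. Of the 21, 19 reached the floor, and over all genes that did so 11.9% were at least 2-fold lower. Prss8, which encodes the membrane serine protease prostasin, read 5.52 in the fusion line and 10.4 in the control line, a difference of -4.93 or 30.4-fold. Elf3, an ETS transcription factor of epithelia, differed by -3.53, and Marveld2, which encodes the junction protein tricellulin, by -3.23. Some regulators differed little. Grhl2 (-0.34), a transcription factor that activates Cdh1 in epithelia, and the RNA-binding protein gene Rbm47 (-0.34) were within 2-fold, and the 1 higher gene was Cd24a (1.48), which encodes a surface glycoprotein. The 10 trophectoderm markers described above were lower in the same sample as Cdh1, Cdh3, Epcam, Esrp1 and these genes, and the part of trophectoderm cells in those differences was not tested.

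**Figure D3:**
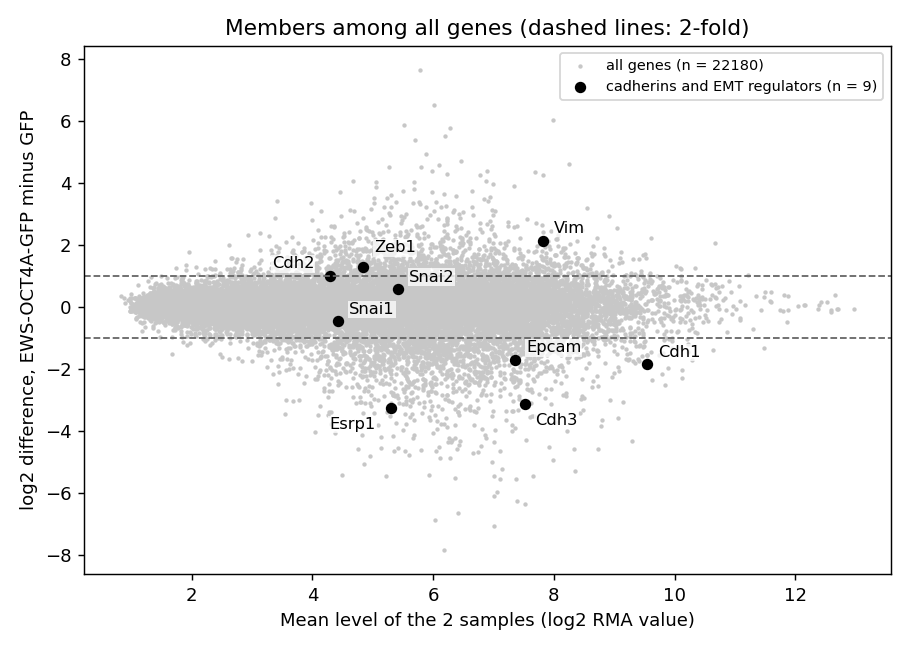
log2 difference between the samples (y axis, EWS-OCT4A-GFP minus GFP) against the mean level of both samples (x axis, log2 RMA value) for 22180 genes (grey) and the 9 measured members (black); dashed lines mark 2-fold. Esrp1 and Cdh3 lie lowest at -3.24 and -3.12, Vim lies highest at 2.15, and Snai1 and Snai2 lie between the lines.

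Vim, which encodes the intermediate filament protein vimentin, was the member with the largest difference in the other direction. On probe set 17367055 it read 8.89 in the fusion line and 6.75 in the control line, a difference of 2.15 or 4.43-fold, and it ranked 193 from the highest. Probe set 17548193 of Vim read 5.88 and 5.19, a difference of 0.69 that stayed within 2-fold. The probe sets share a direction but not a size, so the fold of Vim depends on which is read.

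Mesenchymal genes other than Vim lay on both sides of 0. Of 19 measured mesenchymal genes, 2 were higher and 3 lower by at least 2-fold, with a median difference of -0.08. The 5 past 2-fold, of 14 that reached the floor, compare with 21.2% of all such genes. Fn1, which encodes fibronectin, read 10.7 in the fusion line and 9.35 in the control line, a difference of 1.33. Des, which encodes desmin, another filament protein of the vimentin class, differed by 1.07. On the lower side were Postn (periostin, 2.03 against 6.06), Acta2 (smooth muscle actin, -1.64) and Pdgfra (-1.15). The fibrillar collagen genes Col1a1 (-0.08), Col1a2 (0.07) and Col3a1 (-0.28) stayed within 2-fold.

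Fibroblast markers were read beside Vim. Of 10 such markers, 0 were at least 2-fold higher and 1, Postn, was at least 2-fold lower, and the median difference was 0.01 (-0.05 after loess centring). Of the 10, 5 had a difference above 0, and 4 were under the floor in both samples. Their readings ran from 1.81 to 5.12 in the fusion line and from 1.64 to 6.06 in the control line. The matrix genes Dcn (2.21 in both) and Lum (1.81 and 1.64) were under the floor. The part of fibroblast RNA in the Vim difference was not tested. These markers share 7 genes with the mesenchymal list, so the lists are not separate. Mesoderm markers had a median difference of -0.15, and the 2 of 10 that were at least 2-fold lower, Eomes (-1.95) and Hand1 (-2.07), also stand on the trophectoderm list. Primitive endoderm markers had a median of -0.22 with 4 of 10 at least 2-fold lower, led by Dab2 (-2.65) and Col4a1 (-2.62). The floor was reached by 6 fibroblast, 8 mesoderm and 7 primitive endoderm markers. Over all genes that reached it, 11.9% were at least 2-fold lower.

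Of the member EMT transcription factor genes, Zeb1 alone passed 2-fold. Zeb1, a zinc finger repressor of Cdh1, read 5.49 in the fusion line and 4.20 in the control line, a difference of 1.29 or 2.45-fold. Its control reading lay just above the floor. Snai2, which encodes SLUG, read 5.71 and 5.12, a difference of 0.59. Snai1, which encodes SNAIL and is the factor best known for repressing Cdh1 at gastrulation, read 4.19 and 4.66. Its difference of -0.46 had the opposite sign to those of Zeb1 and Snai2, but the Snai1 and Snai2 differences were within 2-fold. Zeb2 could be read only through probe sets annotated together with another gene. One shared with Zeb2os read 2.44 and 2.33, and one shared with Mir5129 read 3.44 and 3.27, all under the floor.

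Among 15 further EMT transcription factor genes measured, none was at least 2-fold higher and 2 were at least 2-fold lower, with a median difference of 0.10. The 2 lower genes were among 12 that reached the floor, beside 11.9% lower over all such genes. Nothing particular to these factors is read from the count. Tcf12, which encodes an E protein, differed by -1.19 and Foxc1 by -1.14. Tcf4 (0.93) and Tcf3 (0.69), which also encode E proteins, were within 2-fold. E proteins can bind the same E-boxes as SNAIL and ZEB proteins. Twist1 read 4.78 in the fusion line and 4.49 in the control line. Zeb1 was thus the 1 repressor gene of this kind past 2-fold on the higher side, among the 3 measured member factors and these 15. The Zeb1 difference did not reach 3-fold, and its higher reading of 5.49 was under a floor set at the 75th percentile (5.80) or at 6, so that the gene was not counted under those settings.

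Partners of SNAIL and ZEB proteins were mostly within 2-fold. Of 18 corepressor and turnover genes, 12 were within 2-fold, 2 were higher and 3 lower by at least 2-fold, with a median of -0.06. The 5 past 2-fold, of 17 that reached the floor, compare with 21.2% of all genes, and nothing particular to these partners is read from the count. Ctbp2, which encodes a corepressor that ZEB proteins recruit, read 8.13 in the fusion line and 6.07 in the control line, a difference of 2.06 or 4.17-fold. Its paralog Ctbp1 differed by -0.39. Limd1, a LIM protein of the family that binds SNAIL, read 5.71 and 7.93, and Rcor1, which encodes the corepressor CoREST, differed by -1.91. Gsk3b, the kinase that marks SNAIL for degradation, differed by -1.45.

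TGF-beta, a classical inducer of this transition, was followed through 15 genes, of which 3 were higher and 2 lower by at least 2-fold, with a median of -0.20. The 5 past 2-fold, of 14 that reached the floor, compare with 21.2% of all such genes. Eng, which encodes the co-receptor endoglin, read 7.24 in the fusion line and 5.04 in the control line, a difference of 2.21. The ligand gene Tgfb1 differed by 1.19 and the corepressor gene Tgif1 by 1.32. The co-receptor gene Tgfbr3 (-1.71) and the SMAD corepressor gene Ski (-1.63) were lower. The receptor genes Tgfbr1 (0.17) and Tgfbr2 (-0.74) and the SMAD genes Smad2 (-0.55) and Smad4 (0.18) were within 2-fold. Smad3 read 3.91 and 4.91, and its difference of -0.997 lay just inside the threshold.

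**Figure D4:**
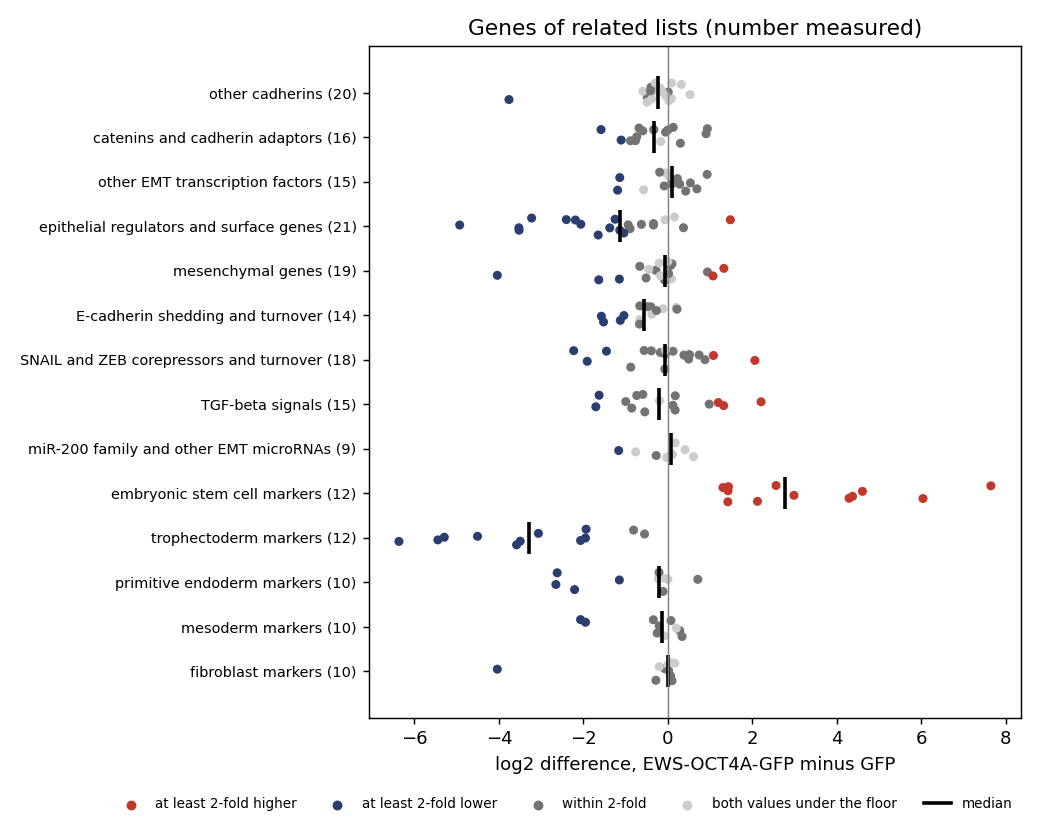
log2 difference (x axis, EWS-OCT4A-GFP minus GFP) of each measured gene of 14 related lists, with the number measured in brackets; points are genes coloured by the 2-fold rule and black bars are list medians. The epithelial list (median -1.14) and the trophectoderm list (-3.28) lie to the left, the embryonic stem cell list (2.77) to the right, and the mesenchymal (-0.08) and EMT transcription factor (0.10) lists lie about 0.

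The miR-200 microRNAs, which target Zeb1 and Zeb2 transcripts and are themselves repressed by ZEB proteins, are shown because of the Zeb1 reading. The mature 3p sequences below come from RefSeq (GRCm38.p6), written 5′ to 3′ with the seed, bases 2 to 8, in capitals.
miR-200b-3p (chr4:156055685-156055706, minus strand): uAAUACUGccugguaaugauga
miR-200c-3p (chr6:124718324-124718346, minus strand): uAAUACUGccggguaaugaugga
miR-429-3p (chr4:156053916-156053937, minus strand): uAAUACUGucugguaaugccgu
miR-200a-3p (chr4:156054911-156054932, minus strand): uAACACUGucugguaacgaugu
miR-141-3p (chr6:124717917-124717938, minus strand): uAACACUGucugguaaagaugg
The seed AAUACUG is shared by miR-200b, miR-200c and miR-429, and the seed AACACUG by miR-200a and miR-141.

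The microRNA genes read low. Mir200b read 3.99 in the fusion line and 4.26 in the control line, and was the 1 family member with a reading above the floor. Mir200a (3.19 and 3.95), Mir200c (3.46 and 3.06) and Mir141 (2.01 and 1.83) were under the floor in both samples, and Mir429 had no probe set of its own. The Mir200a and Mir200b readings were lower in the fusion line and those of Mir200c and Mir141 higher, all within 2-fold. Of 9 measured EMT microRNA genes, 1 was at least 2-fold lower, Mir34a with 4.55 and 5.72. Of the 9, 2 reached the floor, and over all genes that did so 11.9% were at least 2-fold lower. The sources used here do not say whether these probe sets report the mature microRNA or its longer transcript, so the low readings do not show that a mature microRNA was absent.

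SNAIL and ZEB proteins bind the E-box CACCTG, and the upstream sequences of Epcam and Vim are shown because these members differed in opposite directions and the promoter table held them. Each is the 250 bases before the RefSeq gene start (GRCm38.p6, plus strand), 5′ to 3′, with CACCTG or its reverse complement CAGGTG in capitals.
Epcam (chr17:87635729-87635978): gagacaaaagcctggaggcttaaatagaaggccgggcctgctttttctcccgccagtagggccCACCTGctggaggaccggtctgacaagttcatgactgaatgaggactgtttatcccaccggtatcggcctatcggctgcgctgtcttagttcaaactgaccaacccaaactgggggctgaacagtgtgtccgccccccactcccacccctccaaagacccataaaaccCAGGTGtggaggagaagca
Vim (chr2:13574061-13574310): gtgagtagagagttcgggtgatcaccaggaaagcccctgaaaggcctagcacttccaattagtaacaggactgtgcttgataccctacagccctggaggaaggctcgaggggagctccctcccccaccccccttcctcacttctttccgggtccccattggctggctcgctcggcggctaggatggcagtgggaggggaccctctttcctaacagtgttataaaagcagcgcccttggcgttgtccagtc
Epcam held 2 such sites, which begin 187 and 19 bases before the gene start, and Vim held 0. Of the members, 4 were in the table. Snai1 held 1 site, 126 bases before its start, and none of the Zeb2 windows held one.

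Such letters are common. CACCTG on either strand stood in 17.2% of 32851 upstream windows of this length, and in at least 1 window of 19.4% of 27025 genes. Of the epithelial regulator and surface genes above, 12 were in the table, and 7 of these held a site: Ap1m2, Crb3, Elf3, Grhl3, Lsr, Rab25 and Spint2. The windows of all 12 genes, with or without a site, were richer in G and C. Their median was 58.4% against 52.4% over all windows. A match is a description of the letters, and binding of any factor was not measured. Of the 7 genes with a site, 6 were at least 2-fold lower in the fusion line, and Rab25 was under the floor in both samples. Of the 5 without a site, 3 were at least 2-fold lower, and Grhl1 (-0.63) and Rbm47 (-0.34) were within 2-fold. Over all genes that reached the floor 11.9% were at least 2-fold lower, and 12 of the 21 measured genes of this list were. The list was chosen with earlier results of these data known. The difference between the counts with and without a site was not tested, and nothing is read from it.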

How the data were processed

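The authors deposited 1 table of log2 values for 2 samples, made with Affymetrix Expression Console 1.1 and RMA, per the submitters' processing notes. RMA corrects background, quantile-normalizes arrays and summarises probes by median polish, so a shift common to most genes is not visible and low values are compressed. The log base is not written in the table; log2 was taken from RMA and from the range of 0.618 to 13.0. No detection call was used, and the number of arrays limits the precision.

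Of 33793 probe sets, 23521 had 1 gene symbol in the platform annotation; symbols were updated by gene ID through RefSeq (GRCm38.p6), which held 23328 of them. For 1082 genes with several probe sets, the one with the highest mean over both samples stood for the gene, and member probe sets were also read singly. The sources used here do not give the array build. Differences were described by size only (2-fold, higher reading at or above 4.10). In each of 14 related lists up to 4 genes with the largest absolute difference at or above the floor were named; other named genes were chosen after their values were seen. The members and lists were chosen with earlier results of these data known. Alternatives covered the fold, the floor, the normalization (loess span 0.3), probe sets averaged or shared with other genes, and the unit counted. The counting code was tested on simulated data, which gives no error rate for the real samples. Software versions were Python 3.11.15, statsmodels 0.14.6, pandas 2.3.3, numpy 2.4.6 and matplotlib 3.10.9.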

Additional observations from a re-analysis of the deposited data

How the results depend on the processing

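No paired analysis was possible because there is 1 sample for each line, and no replicate could be left out. All 9 members kept their direction under median centring, quantile normalization and loess centring, which moved none of them by more than 0.14. The values were already quantile-normalized by RMA, so median centring and quantile normalization had little left to change. The 4 lower members passed every fold and floor tried. Cdh2 was under 2-fold with median centring (0.98), loess centring (0.99) and averaged probe sets (0.77), the last chosen after seeing the data. Of the 3 higher members, 1 (Vim) was left at 3-fold, with the floor at the 75th percentile and with a floor of 6. Averaging its probe sets took the Vim difference from 2.15 to 1.42, still past 2-fold. This move of 0.73 was the largest of any member under that setting.

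Genes higher and lower (1259 and 1608) numbered 2708 and 2784 at 1.5-fold and 464 and 786 at 3-fold. With genes at or above the floor only, list medians became -0.46 for catenins and adaptors, -1.25 for epithelial genes and -0.41 for other cadherins. They became -1.15 for primitive endoderm markers and -0.72 for EMT microRNAs, which changed sign. By construction these medians use fewer genes, and only 2 EMT microRNA genes were left. Averaged probe sets gave -0.45 for E-cadherin shedding and turnover and -2.57 for trophectoderm markers, and loess centring gave 2.67 for embryonic stem cell markers. Signal over background is unknown, which limits what can be said near the floor.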
